A study of Homo sapiens with 12 samples.

Results

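The V-ATPase is the rotary proton pump of endosomes, lysosomes and other acidic compartments, and the 33 genes described here encode its subunits and the proteins that build it or hold its sectors together. They were taken by gene name from a given list, and all 33 were found among the 25733 genes of the deposited table. The list holds 12 genes of the cytosolic V1 sector, 10 genes of the membrane-bound V0 sector, and 11 accessory and assembly genes. RNA was sequenced from HCT116, an established human colorectal cancer cell line, in 4 groups with 3 replicate libraries each. Control cells are labelled as untreated. By the study's methods, NH4Cl cells had 10 mM NH4Cl for 24 h, TGF-β cells had vehicle and then 200 pM TGF-β for 1 h, and NH4Cl + TGF-β cells had 10 mM NH4Cl for 23 h and then 200 pM TGF-β for 1 h. The labels do not say whether replicates were separate cultures, so p-values measure only the spread between these 12 samples.

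ATP hydrolysis in V1 turns a central rotor, and the rotor drives a ring of proteolipid subunits past subunit a of V0, which carries protons across the membrane. V1 and V0 can come apart and join again, which is how cells adjust pump activity without making new subunits. Ammonia is a weak base that crosses membranes and takes up protons inside acidic compartments, so NH4Cl raises their pH while the pump works against it. The comparison of NH4Cl with control therefore asks how RNA levels of the pump's own genes differed in cells given a weak base. The comparison of NH4Cl + TGF-β with TGF-β asks the same in cells that also had TGF-β for the last hour.

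Values are FPKM, read counts divided by exon length and library depth, so that levels of different genes can be set side by side. Library sums differed, at 301728 to 305984 FPKM in replicate 3 and 262958 to 278920 FPKM in replicates 1 and 2. FPKM compared between libraries carry this difference, which the main fits do not remove. Depth, worked back from FPKM and exon lengths, was 14807630 to 18191998 reads on genes (median 15484798 over 12 libraries). Replicate 3 of every group stood apart from replicates 1 and 2. Between replicates 1 and 2 the chi-square per gene was 5.02 with NH4Cl + TGF-β and 1.76 to 2.29 in the other groups. The first principal component of all tested genes held 52.5% of the variance and placed the replicate 3 libraries at 16.7 to 27.8 and the others at -17.5 to -4.07. In mitochondrial reads the replicate 3 libraries, at 4.50% to 5.12%, also differed from the rest, at 2.46% to 3.18%. For this reason each comparison was fitted with limma on log2(FPKM + 1) without and with the replicate number as a block, and results are also given for replicates 1 and 2 alone. On this scale fold changes of genes with low FPKM are understated. A gene was tested where its mean over the 12 libraries was at least 1 FPKM, which 12341 genes were, and an adjusted p under 0.05 counted as past the threshold.

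The cell line was checked against marker genes. Of 9 colon epithelial markers, 8 reached a mean of 1 FPKM, with KRT18 the most abundant and KRT20 at no more than 0.416 FPKM. Their summed level was 2528, 2418 and 3328 FPKM in control replicates 1 to 3, 2509, 2436 and 3429 with TGF-β, 2286, 2311 and 2909 with NH4Cl, and 2498, 2379 and 3026 FPKM with NH4Cl + TGF-β. It was thus highest in replicate 3 of each group, and lower with NH4Cl in 6 of 6 pairs of equal replicate number. Among leukocyte markers only CD3E was in the table, at 0.0726 to 0.280 FPKM. Fibroblast markers summed to 1.17 to 2.68 FPKM, nearly all of it COL1A1. The 2 endothelial markers summed to 1.56, 1.67 and 3.96 FPKM in the control libraries, 1.62, 1.29 and 4.03 FPKM with TGF-β, 2.51, 2.77 and 5.72 FPKM with NH4Cl, and 2.47, 2.45 and 6.54 FPKM with NH4Cl + TGF-β. That sum was almost entirely VWF, while PECAM1 stayed between 0.00750 and 0.0911 FPKM. VWF and the epithelial sum thus differed by both NH4Cl and the replicate number, and their part in the results on the pump genes was not tested.

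All 33 genes are placed here by their mean level over the 12 libraries. In V1, ATP6V1F of the central rotor stalk had the highest mean of the 33 at 107 FPKM, followed by ATP6V1G1 of the peripheral stalks at 35.4 and the catalytic subunit ATP6V1A at 24.5 FPKM. The peripheral stalk subunit ATP6V1E1 had 16.5, the nucleotide-binding subunit ATP6V1B2 had 11.4, and ATP6V1C1, which ties the stalks to V0, had 8.05 FPKM. The rotor subunit ATP6V1D stood at 6.91 and ATP6V1H, which stops ATP hydrolysis in V1 that has left the membrane, at 5.84 FPKM. The alternative isoforms ATP6V1C2 and ATP6V1E2 had 2.29 and 2.06 FPKM, and ATP6V1G2 and ATP6V1B1 only 0.116 and 0.0173 FPKM. Means within V1 thus ran from hardly any reads to the highest level of the list.

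In V0, the small membrane subunit ATP6V0E1 had a mean of 31.7 FPKM and the proteolipid ATP6V0B one of 29.1 FPKM. TCIRG1, the a3 isoform of subunit a, had 12.1 FPKM, and ATP6V0D1, which joins the rotor to the proteolipid ring, had 6.95 FPKM. ATP6V0A1, ATP6V0E2, ATP6V0A2 and ATP6V0A4 had 3.99, 3.98, 2.79 and 2.33 FPKM, the main proteolipid ATP6V0C had 1.61 FPKM, and ATP6V0D2 had 0.0427 FPKM. Among accessory and assembly genes the level was highest for OXR1, a TLDc-domain protein that binds the pump, at 39.1 FPKM, and for ATP6AP1, a glycoprotein of the V0 sector, at 32.9 FPKM. The second accessory protein ATP6AP2 had 12.7 FPKM. The V0 assembly factors of the endoplasmic reticulum, VMA21, CCDC115 and TMEM199, had 12.3, 7.57 and 1.96 FPKM. Of the proteins that help V1 rejoin V0, ROGDI, DMXL1, DMXL2 and WDR7 had 3.32, 3.26, 1.31 and 0.849 FPKM, and the TLDc-domain protein NCOA7 had 3.10 FPKM. In all, 4 genes had a mean under 1 FPKM, 12 from 1 to 5, 5 from 5 to 10, 5 from 10 to 20, 6 from 20 to 40, and 1 above 40. Neighbours in this order often overlapped across libraries: ATP6V0A1 spanned 3.53 to 4.46 FPKM and ATP6V0E2 spanned 3.11 to 4.67 FPKM.

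**Figure D1:**
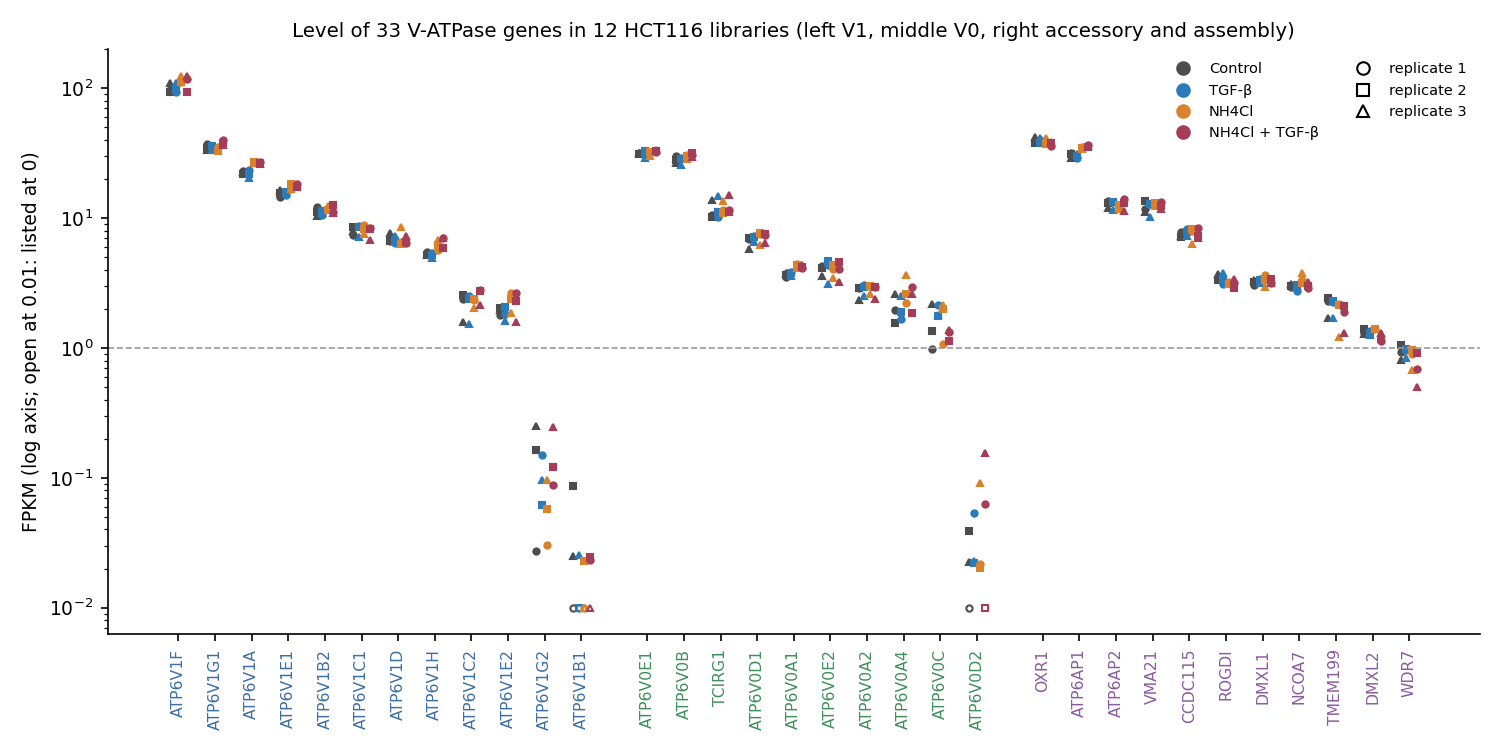
FPKM of each of the 33 V-ATPase genes in each of the 12 libraries on a log axis, with V1 genes at the left, V0 genes in the middle and accessory and assembly genes at the right. Colours give the group and symbols the replicate, and the dashed line is 1 FPKM; ATP6V1F lies near 100 FPKM, while ATP6V1G2, ATP6V1B1 and ATP6V0D2 lie far below 1 FPKM.

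The 4 genes under a mean of 1 FPKM were not tested. ATP6V1B1, ATP6V0D2 and ATP6V1G2, isoforms known from specialised cells such as kidney intercalated cells, osteoclasts and neurons, had 9, 25 and 48 reads over all 12 libraries. ATP6V1B1 was at 0 reads in 6 libraries, where the FPKM that 3 reads would give was 0.0600 to 0.0772, and ATP6V0D2 was at 0 in 2 libraries. WDR7, part of the complex with DMXL1 or DMXL2, had 134 to 282 reads per library, which is 0.503 to 1.05 FPKM. Its replicate 3 library was the lowest of each group, at 0.808 FPKM (control), 0.833 (TGF-β), 0.675 (NH4Cl) and 0.503 FPKM (NH4Cl + TGF-β).

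For 7 subunits the list holds more than 1 isoform, and their shares of the family's summed FPKM were compared within each library. A single isoform made up nearly all of the family for B, G and d: ATP6V1B2 took 99.2% to 100% (n = 12 libraries), ATP6V1G1 99.3% to 99.9%, and ATP6V0D1 97.6% to 100%. ATP6V1C1 took 75.1% to 83.4% of subunit C, ATP6V1E1 86.3% to 92.0% of subunit E, and ATP6V0E1 87.3% to 91.2% of subunit e. The ATP6V1C1 share was 75.07% to 76.04% with NH4Cl + TGF-β, below the 77.55% to 82.32% with TGF-β. With NH4Cl alone, at 77.41% to 79.05%, it lay inside the control range of 75.61% to 83.42%. Subunit a, which sets the membrane to which the pump goes, was the most mixed. There TCIRG1 took 52.4% to 63.2% with a median of 55.8%, ATP6V0A1 had a median of 19.0%, ATP6V0A2 of 14.3% and ATP6V0A4 of 10.5%. The replicate 3 library had the highest TCIRG1 share of each group, and the lowest ATP6V0A1 and ATP6V0A2 shares. Mean ATP6V0A4 share by group was 10.1% ± 1.54 (control), 9.68% ± 0.885 (TGF-β), 12.7% ± 2.32 (NH4Cl) and 11.1% ± 2.19 (NH4Cl + TGF-β; SD, n = 3), and the libraries of the groups overlapped. The TCIRG1 share was lower with NH4Cl in 6 of 6 pairs of equal replicate number, most in control and NH4Cl replicate 3, at 61.2% and 56.9%, and least in TGF-β and NH4Cl + TGF-β replicate 1, at 54.5% and 53.8%. The shares were not tested. For no family did the leading isoform change between groups.

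**Figure D2:**
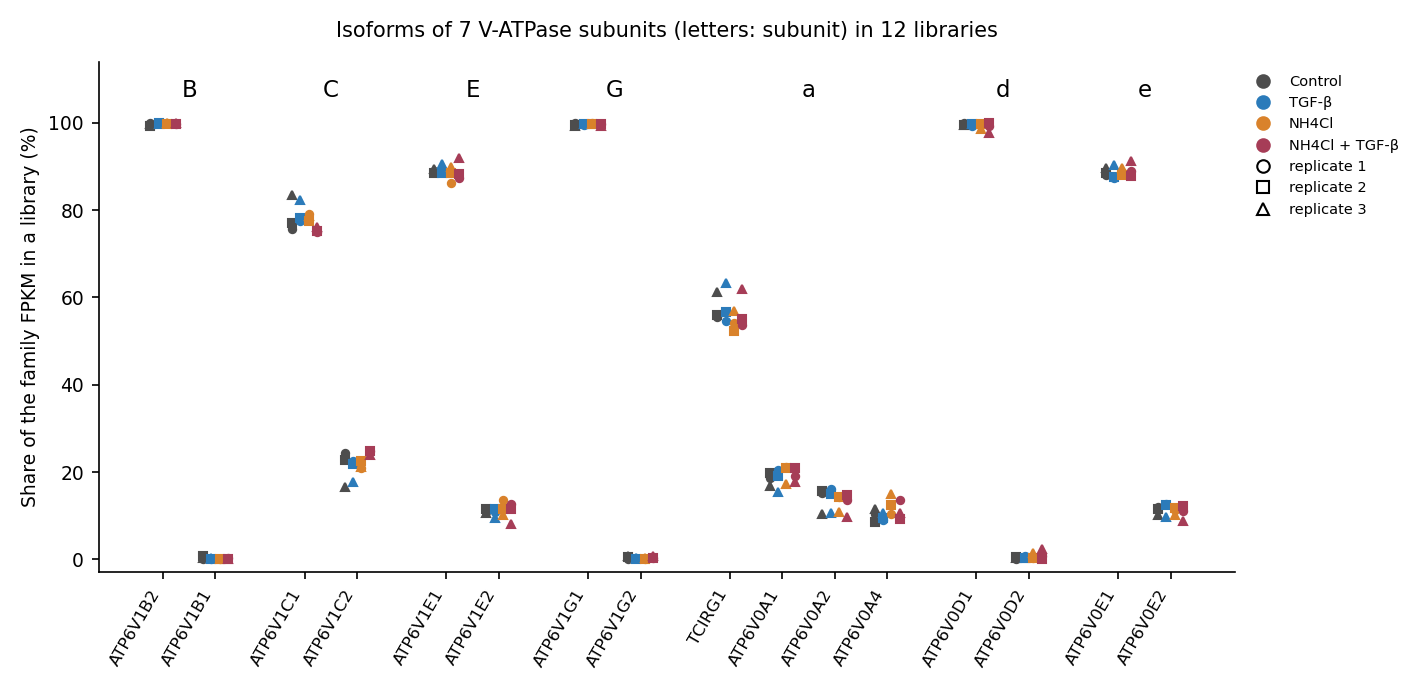
Share of each isoform in the summed FPKM of its subunit family, in percent, for 7 subunits named by letter, with 1 point per library coloured by group and shaped by replicate. ATP6V1B2, ATP6V1G1 and ATP6V0D1 sit near 100%, and TCIRG1 takes 52.4% to 63.2% of subunit a.

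Some levels rest on exons shared with other genes, and the sources do not state whether counting used strand. Of the exon bases of ATP6V0C, 72.1% also lie in exons of AC093525.2 or AC093525.1 on the same strand, and neither of these genes is in the table. It had 25 to 60 reads in a library, so its low level is uncertain. ATP6V1B1 shares 62.4% of its exon bases with VAX2 and ROGDI shares 38.3% with AC020663.4, both on the same strand. On the opposite strand, ATP6V1C2 shares 29.7% with PDIA6, whose mean was 81.2 FPKM, and ATP6V1F shares 23.7% with KCP, whose mean was 0.359 FPKM. TMEM199 shares 13.8% on the same strand and 24.3% on the opposite strand. ATP6AP1, ATP6V1E1 and ATP6V1H share none, and ATP6V1A and ATP6V0A1 share 2.13% and 1.31%.

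Many genes of lysosomal biogenesis carry near their start the palindrome CACGTG, which basic helix-loop-helix factors such as TFEB and TFE3 recognise, so the promoters of the pump genes were searched for it. RefSeq promoter sequences on GRCh38.p14 were available for 23 of the 33 genes, as 34 entries. ATP6V1A, ATP6V1B2, ATP6V1C1, ATP6V1E2, ATP6V1H, ATP6V0D2, ATP6V0E1, TMEM199, CCDC115 and OXR1 had none. The 250 bases before each start were read for CACGTG, which is the same on both strands, and for the longer palindrome TCACGTGA, which contains it. CACGTG was in 5 of 34 entries, or 14.7%, from 4 genes, and in 2228 of all 35116 promoters, or 6.34%. TCACGTGA was in 2 entries, or 5.88%, and in 300 of all promoters, or 0.854%. First bases stood at -57 and -39 in ATP6V0B, -59 in ATP6V0D1, -58 in ATP6V1G1, and -68 or -72 in ATP6V0E2 by its start, and the longer palindrome at -60 in ATP6V0D1 and -59 in ATP6V1G1. Most of these windows overlap an annotated exon of the same gene. An annotated exon of the gene begins at -312 in ATP6V0B and at -80 in ATP6V0D1, so their matches lie inside the genes as annotated. The stretches below are shown 5′ to 3′ because they hold these matches, with CACGTG in capitals. ATP6AP1 and ATP6V0A1 are added as examples of genes higher in every NH4Cl library that have no match in the window. ATP6V1E1, higher in the same way, had no match in its entries either and is not shown. ATP6V1A and ATP6V1H, also higher in this way, had no entry.
ATP6V1G1, chr9:114587646-114587745, plus strand: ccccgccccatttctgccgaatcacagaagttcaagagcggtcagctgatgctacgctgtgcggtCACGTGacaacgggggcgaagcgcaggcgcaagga
ATP6V0D1, chr16:67481199-67481228, minus strand: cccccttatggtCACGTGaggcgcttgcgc
ATP6V0B, chr1:43974900-43974929, plus strand: ggtCACGTGgtaccggcgcatCACGTGggc
ATP6V0E2, chr7:149872868-149872967, plus strand: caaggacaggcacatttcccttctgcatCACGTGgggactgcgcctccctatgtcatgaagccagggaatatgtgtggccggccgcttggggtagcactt
ATP6AP1, chrX:154428532-154428631, plus strand: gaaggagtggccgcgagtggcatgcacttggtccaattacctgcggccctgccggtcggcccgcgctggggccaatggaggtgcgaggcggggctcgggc
ATP6V0A1, chr17:42458744-42458843, plus strand: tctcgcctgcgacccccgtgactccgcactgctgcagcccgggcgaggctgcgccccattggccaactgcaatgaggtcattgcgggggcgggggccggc
A match is a run of letters and not a measured binding site, and its absence says only that these letters are not in the window.

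With NH4Cl against control, 0 of the 29 tested genes passed the threshold in limma without the block, where 0.381% of all tested genes were called (0.267% higher and 0.113% lower), and 5 of the 29 had an unadjusted p under 0.05, as had 1333 of all 12341 genes. With the replicate block, 4 of the 29 were called higher, against 7.42% of all tested genes, and 0 lower, against 6.14%, with 13.6% of all tested genes called in either direction. Those 4 were ATP6V1A, ATP6V1F, ATP6V0A1 and ATP6AP1, and 10 of the 29 had an unadjusted p under 0.05 in limma with the block, as had 3585 of all 12341. In these bulk samples, fewer cells of a type and less RNA per cell cannot be told apart. Fold changes are log2 differences of FPKM + 1, and their median was 0.062 over the 29 genes and 0.000084 over all tested genes. It was 0.11 for the 10 tested V1 genes, 0.066 for the 9 V0 genes and 0.016 for the 10 accessory and assembly genes. Leaving out 1 library moved these medians between 0.088 and 0.14, 0.028 and 0.10, and -0.019 and 0.056. A fold change above 0 was seen for 22 of the 29 genes, and for 20 of them with each library centred on its median.

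NH4Cl + TGF-β against TGF-β shares no library with the comparison before, but both come from the same fit with a common estimate of the spread. There 1 of the 29 genes, ATP6AP1, was called higher without the block, against 0.778% of all tested genes. None was called lower, against 0.251% (1.03% of all tested genes were called in either direction), and 5 of the 29 had an unadjusted p under 0.05 in limma, as had 1642 of all 12341 genes. With the block, 5 of the 29 were called higher, against 10.3%, and 0 lower, against 8.48% (18.8% in either direction), with 12 at an unadjusted p under 0.05 in limma, beside 4124 of all 12341. The 5 were ATP6V1A, ATP6V1E1, ATP6V1H, ATP6V0B and ATP6AP1. Median fold changes were 0.060 over the 29 genes, -0.000057 over all tested genes, 0.15 for V1, 0.060 for V0 and -0.030 for accessory and assembly genes. With 1 library left out the class medians ran from 0.093 to 0.17, 0.049 to 0.11 and -0.046 to -0.0023. Here 18 of the 29 genes had a fold change above 0, and 17 after median centring. With replicates 1 and 2 alone and the block, ATP6V1A, ATP6V0A1 and ATP6AP1 were called higher with NH4Cl against control, against 5.10% of all tested genes, and 0 lower, against 4.19%. ATP6V1A and ATP6AP1 were called higher with NH4Cl + TGF-β against TGF-β, against 7.77%, and 0 lower, against 5.62%.

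**Figure D3:**
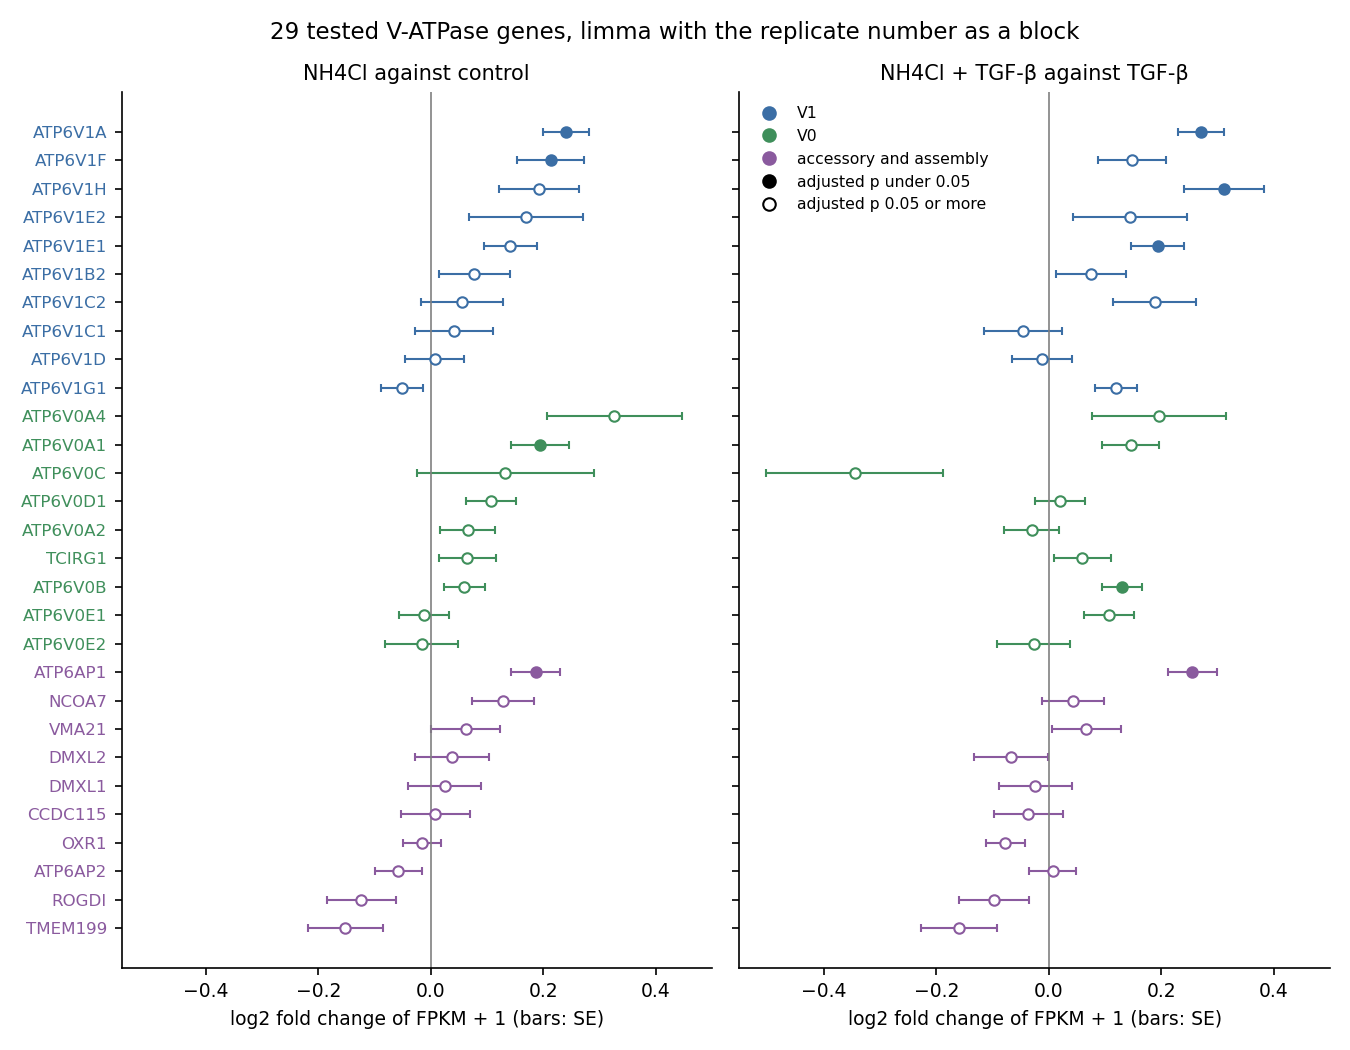
Log2 fold change of FPKM + 1 for the 29 tested genes, with its SE as bars, from limma with the replicate block, for NH4Cl against control at the left and NH4Cl + TGF-β against TGF-β at the right. Filled points have an adjusted p under 0.05; all filled points lie above 0, and ATP6V1A and ATP6AP1 are filled in both panels.

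In V1, ATP6V1A (ENSG00000114573, chr3:113747019-113812056), the subunit that hydrolyses ATP, was at 23.2, 21.8 and 22.7 FPKM in control replicates 1 to 3, 23.6, 21.9 and 20.5 with TGF-β, 26.9, 26.9 and 26.6 with NH4Cl, and 27.1, 26.8 and 26.2 FPKM with NH4Cl + TGF-β. All 6 libraries with NH4Cl were above all 6 without it, and the 3 NH4Cl libraries lay closer together than the 3 controls. Group means were 22.5 ± 0.739 FPKM in control cells and 26.8 ± 0.186 FPKM with NH4Cl (SD, n = 3). The log2 fold change was 0.24 for NH4Cl against control (SE 0.041 with the block; limma adjusted p = 0.106 without and 0.00514 with the block). It was 0.27 for NH4Cl + TGF-β against TGF-β (limma adjusted p = 0.0520 without and 0.00222 with the block). With the block, both calls held without any 1 of the 12 libraries, at adjusted p-values of 0.00300 to 0.0337 and 0.00339 to 0.0128. With replicates 1 and 2 alone the fold changes were 0.25 and 0.24, at limma adjusted p = 0.0195 and 0.0182.

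ATP6V1E1 (ENSG00000131100, chr22:17592136-17628818), a strut of the peripheral stalks, was at 14.6, 15.6 and 16.5 FPKM in control libraries, 15.1, 15.9 and 15.5 with TGF-β, 16.8, 18.2 and 16.7 with NH4Cl, and 18.2, 17.4 and 18.0 FPKM with NH4Cl + TGF-β. Again all 6 NH4Cl libraries were above the other 6, but control replicate 3 and NH4Cl replicate 3 differed by little. With NH4Cl against control the fold change was 0.14 (SE 0.047 with the block), short of the threshold in limma without the block (adjusted p = 0.390) and with it (0.0782). With NH4Cl + TGF-β against TGF-β it was 0.19, and limma gave an adjusted p = 0.168 without the block and 0.0205 with it. That call was lost on leaving out TGF-β replicate 1, 2 or 3 (adjusted p = 0.0695, 0.0567 and 0.0586 in limma) or NH4Cl + TGF-β replicate 1 or 3 (0.0833 and 0.0525), and with replicates 1 and 2 alone (0.0589).

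ATP6V1F (ENSG00000128524, chr7:128862826-128865844), part of the rotor, was at 97.5, 94.1 and 109 FPKM in control libraries, 94.3, 96.9 and 111 with TGF-β, 112, 113 and 124 with NH4Cl, and 118, 94.1 and 125 FPKM with NH4Cl + TGF-β. The NH4Cl libraries were above all controls, whereas NH4Cl + TGF-β replicate 2 lay at the level of the untreated cells and below all 3 TGF-β libraries. By FPKM, not scaled to equal library sums, replicate 3 was the highest of every group. For NH4Cl against control the fold change was 0.21 (SE 0.060 with the block; limma adjusted p = 0.527 without and 0.0429 with the block). This call was lost without control replicate 1, 2 or 3 (limma adjusted p = 0.135, 0.104 and 0.118), NH4Cl replicate 1, 2 or 3 (0.0863, 0.176 and 0.0673), TGF-β replicate 3 (0.0548) or NH4Cl + TGF-β replicate 3 (0.0541), with median centring (0.0629), and with replicates 1 and 2 alone (0.147). NH4Cl + TGF-β against TGF-β gave 0.15, with a limma adjusted p = 0.640 without and 0.114 with the block, and 0.00869 with the block when NH4Cl + TGF-β replicate 2 was left out. Leaving out 1 library moved this fold change from 0.067 to 0.27 without and from 0.079 to 0.24 with the block.

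ATP6V1H (ENSG00000047249), the regulatory subunit, was at 5.44, 5.20 and 5.24 FPKM in control libraries, 5.43, 5.20 and 4.92 with TGF-β, 5.70, 6.17 and 6.74 with NH4Cl, and 7.08, 5.91 and 7.08 FPKM with NH4Cl + TGF-β. Every NH4Cl library was above every library without NH4Cl, the lowest at 5.70 against a highest of 5.44 FPKM. NH4Cl against control gave a fold change of 0.19 (SE 0.071 with the block; limma adjusted p = 0.386 without and 0.103 with the block, and 0.0478 with the block when NH4Cl replicate 1 was left out). NH4Cl + TGF-β against TGF-β gave 0.31 (limma adjusted p = 0.106 without and 0.0149 with the block). The latter call was lost without TGF-β replicate 3 (limma adjusted p = 0.0562), NH4Cl + TGF-β replicate 1 or 3 (0.0658 and 0.0557), and with replicates 1 and 2 alone (0.0919).

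The other tested V1 genes did not pass the threshold in either comparison under either model. Their fold changes with NH4Cl against control were -0.051 for ATP6V1G1, 0.0067 for ATP6V1D, 0.041 for ATP6V1C1, 0.056 for ATP6V1C2, 0.078 for ATP6V1B2 and 0.17 for ATP6V1E2. With replicates 1 and 2 alone those of ATP6V1D and ATP6V1C2 became -0.048 and -0.034, and those of ATP6V1B2 and ATP6V1E2 became 0.0055 and 0.28. With NH4Cl + TGF-β against TGF-β, ATP6V1C2 and ATP6V1G1 were higher in 3 of 3 pairs of equal replicate number, and ATP6V1C1 and ATP6V1D lower. The ATP6V1C2 differences there were 0.11, 0.15 and 0.31 in pairs 1 to 3. ATP6V1G1 was singled out after its values were seen. It was at 37.0, 34.5 and 33.6 FPKM in control libraries, 34.8, 36.1 and 33.7 with TGF-β, 35.2, 32.7 and 33.4 with NH4Cl, and 39.9, 37.8 and 36.4 FPKM with NH4Cl + TGF-β. The 3 libraries with both treatments were above all 3 with TGF-β, while the NH4Cl libraries overlapped the controls. Its fold change of 0.12 for NH4Cl + TGF-β against TGF-β had a limma adjusted p = 0.417 without and 0.0503 with the block, and passed with the block when TGF-β replicate 2 was left out. Its interaction of NH4Cl and TGF-β was 0.17 (limma adjusted p = 1.00 without and 0.992 with the block).

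**Figure D4:**
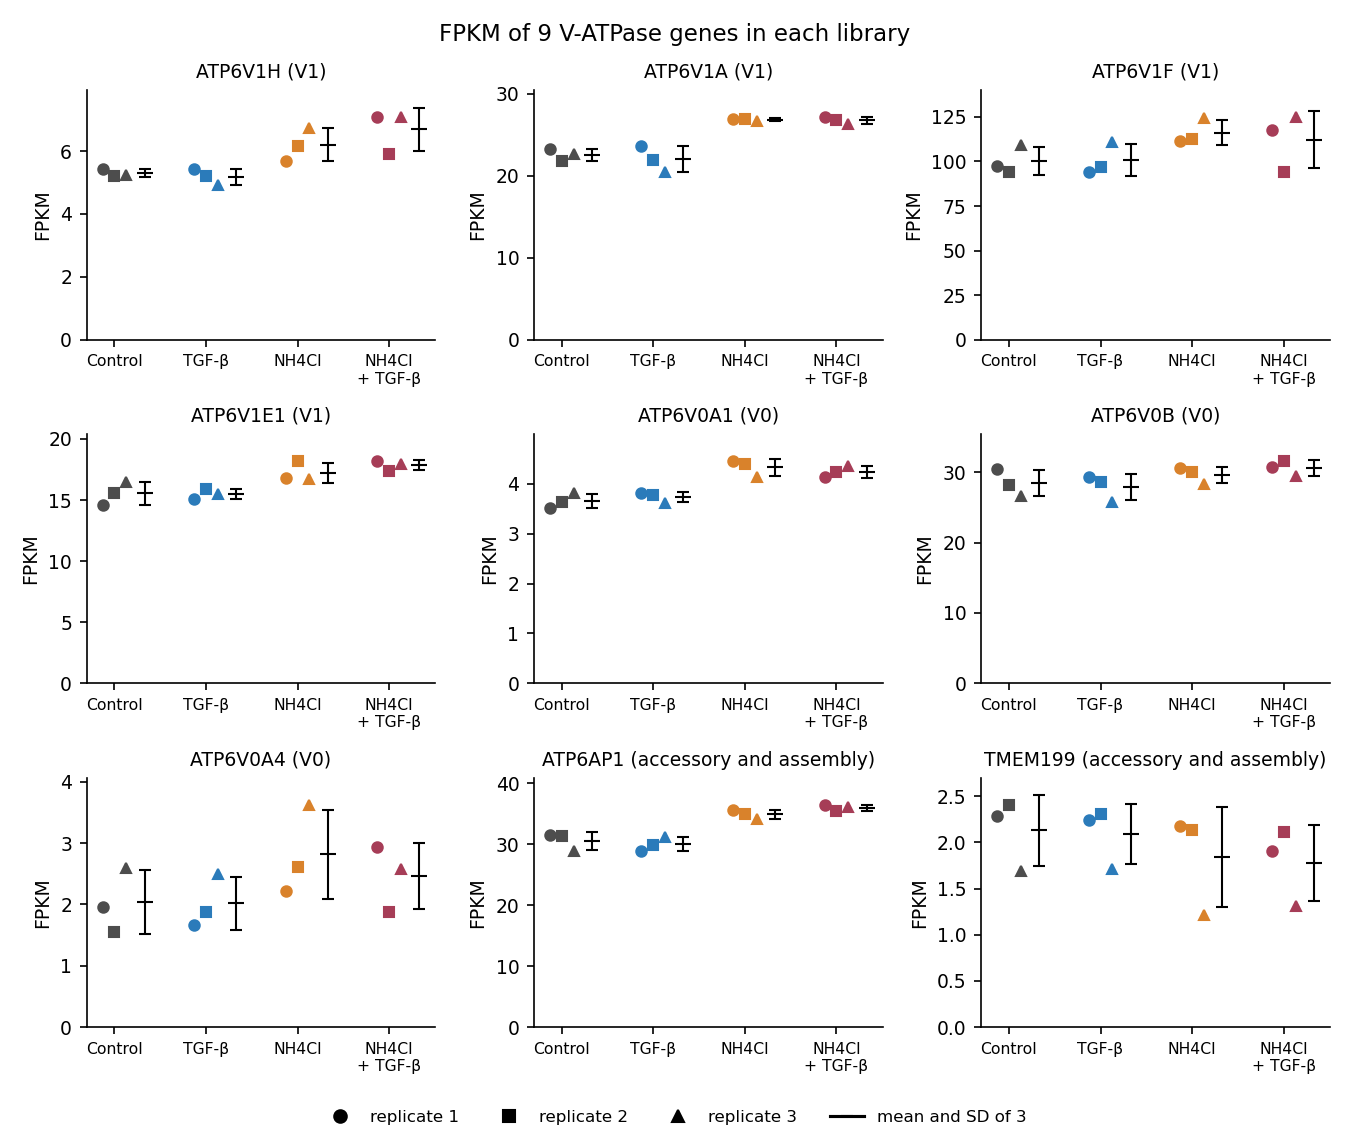
FPKM of 9 genes in the 4 groups, with 1 point per library shaped by replicate, and the mean and SD of 3 libraries as a dash with bars; each axis starts at 0. ATP6V1A, ATP6V1E1, ATP6V1H, ATP6V0A1 and ATP6AP1 have all 6 NH4Cl libraries above the other 6, and ATP6V0A4 and TMEM199 spread widely within groups.

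In V0, ATP6V0A1 (ENSG00000033627, chr17:42458844-42522611), the a1 isoform, was at 3.53, 3.64 and 3.81 FPKM in control libraries, 3.82, 3.78 and 3.62 with TGF-β, 4.46, 4.39 and 4.14 with NH4Cl, and 4.13, 4.23 and 4.36 FPKM with NH4Cl + TGF-β. All 6 NH4Cl libraries were above all 6 others. The promoter stretch printed for it holds no CACGTG. NH4Cl against control gave a fold change of 0.19 (SE 0.051 with the block; limma adjusted p = 0.175 without and 0.0326 with the block). Leaving out control replicate 1 or 2 (limma adjusted p = 0.137 and 0.114) or NH4Cl replicate 1 or 2 (0.123 and 0.119) lost that call, while replicates 1 and 2 alone kept it (0.0437). NH4Cl + TGF-β against TGF-β gave 0.15, past the threshold neither without the block nor with it (limma adjusted p = 0.273 and 0.0732).

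ATP6V0B (ENSG00000117410, chr1:43974487-43978295), a proteolipid of the ring with 2 CACGTG matches before its RefSeq start, was at 30.4, 28.2 and 26.7 FPKM in control libraries, 29.3, 28.5 and 25.8 with TGF-β, 30.5, 30.0 and 28.4 with NH4Cl, and 30.7, 31.6 and 29.4 FPKM with NH4Cl + TGF-β. The control and NH4Cl libraries overlapped, and the 3 libraries with both treatments were just above all 3 with TGF-β, at a lowest of 29.4 against a highest of 29.3 FPKM. In each group replicate 3 was the lowest. NH4Cl against control gave a fold change of 0.060 (limma adjusted p = 0.852 without and 0.312 with the block), and 0.017 to 0.11 without and 0.039 to 0.087 with the block when 1 library was left out. NH4Cl + TGF-β against TGF-β gave 0.13 (SE 0.036 with the block; limma adjusted p = 0.449 without and 0.0327 with the block), and 0.076 to 0.17 and 0.11 to 0.16 in the same way. Without TGF-β replicate 1, 2 or 3 (limma adjusted p = 0.0700, 0.0792 and 0.104), without NH4Cl + TGF-β replicate 2 or 3 (0.119 and 0.0979), with TPM, where each library is scaled to the same sum (0.0659), and with replicates 1 and 2 alone (0.166), that call was lost.

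ATP6V0A4 (ENSG00000105929, chr7:138706294-138799560), the a4 isoform best known from kidney, was at 1.962, 1.553 and 2.602 FPKM in control libraries, 1.670, 1.885 and 2.502 with TGF-β, 2.215, 2.612 and 3.624 with NH4Cl, and 2.939, 1.872 and 2.585 FPKM with NH4Cl + TGF-β. Groups overlapped, and replicate 3 was the highest in 3 of the 4 groups. It is named for the largest fold change of a V0 gene with NH4Cl against control, 0.33 (SE 0.18 without and 0.12 with the block; limma adjusted p = 0.570 and 0.103). Leaving out NH4Cl + TGF-β replicate 1 took the blocked value past the threshold (limma adjusted p = 0.0296), and leaving out 1 library without the block moved the fold change between 0.18 and 0.46. In NH4Cl + TGF-β against TGF-β it was 0.20 (limma adjusted p = 0.726 without and 0.289 with the block), and with 1 library left out 0.098 to 0.33 without and 0.027 to 0.295 with the block. ATP6V0C had the lowest fold change of all 29 genes with NH4Cl + TGF-β against TGF-β, -0.35 (limma adjusted p = 0.467 without and 0.158 with the block), and one of 0.13 with NH4Cl against control, from 25 to 60 reads a library. The remaining V0 genes, among them ATP6V0D1 with its TCACGTGA and ATP6V0E2 with its CACGTG, had fold changes from -0.017 to 0.11 with NH4Cl against control and from -0.030 to 0.11 with NH4Cl + TGF-β against TGF-β. None of them passed the threshold in limma.

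Among accessory and assembly genes, ATP6AP1 (ENSG00000071553, chrX:154428632-154436516), which is built into V0 and needed for its assembly, was at 31.6, 31.3 and 28.9 FPKM in control libraries, 28.9, 29.9 and 31.2 with TGF-β, 35.6, 35.0 and 34.2 with NH4Cl, and 36.5, 35.5 and 36.0 FPKM with NH4Cl + TGF-β. All 6 NH4Cl libraries were above all 6 others, the lowest at 34.2 against a highest of 31.6 FPKM. No CACGTG stands in its printed promoter stretch. NH4Cl against control gave a fold change of 0.19 (SE 0.043 with the block; limma adjusted p = 0.169 without and 0.0201 with the block). That blocked call was lost without control replicate 3 (limma adjusted p = 0.0828) and without NH4Cl replicate 1 or 2 (0.0787 and 0.0749), and kept with replicates 1 and 2 alone (0.0456).

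For NH4Cl + TGF-β against TGF-β, the ATP6AP1 fold change was 0.26 (SE 0.052 without and 0.043 with the block; limma adjusted p = 0.0491 without and 0.00371 with the block), higher in 3 of 3 pairs of equal replicate number. Without the block, leaving out a library kept this call only for control replicate 3 and TGF-β replicate 3. It was lost without control replicate 1 or 2 (limma adjusted p = 0.0841 and 0.0854), TGF-β replicate 1 or 2 (0.229 and 0.202), NH4Cl replicate 1, 2 or 3 (0.0891, 0.0970 and 0.0686) or NH4Cl + TGF-β replicate 1, 2 or 3 (0.160, 0.137 and 0.108). With the block it held without any 1 of the 12 libraries, at a limma adjusted p of 0.00282 to 0.0207, and with replicates 1 and 2 alone at 0.00888.

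TMEM199 (ENSG00000244045, chr17:28357581-28363683), which works with CCDC115 in V0 assembly, was at 2.29, 2.41 and 1.69 FPKM in control libraries, 2.25, 2.31 and 1.71 with TGF-β, 2.17, 2.13 and 1.21 with NH4Cl, and 1.91, 2.11 and 1.31 FPKM with NH4Cl + TGF-β, from 81 to 193 reads a library. Replicate 3 was the lowest of each group, and the groups overlapped. Within pairs of equal replicate number it was lower with NH4Cl in 6 of 6, as were 15.5% of all tested genes. Its fold changes of -0.15 and -0.16 did not pass the threshold (limma adjusted p = 0.848 and 0.772 without, 0.168 and 0.127 with the block). Leaving out 1 library without the block moved the first from -0.26 to 0.018, the latter without NH4Cl replicate 3, and the second from -0.25 to -0.034. With the block the ranges were -0.20 to -0.089 and -0.18 to -0.12. The other 8 tested genes of this class, ATP6AP2, VMA21, CCDC115, DMXL1, DMXL2, ROGDI, NCOA7 and OXR1, had fold changes from -0.12 to 0.13 with NH4Cl against control and from -0.098 to 0.067 with NH4Cl + TGF-β against TGF-β, and none passed the threshold in limma with or without the block.

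Counted by libraries without a test, all 6 libraries with NH4Cl lay above all 6 without it for 5 of the 29 genes, ATP6V1A, ATP6V1E1, ATP6V1H, ATP6V0A1 and ATP6AP1, against 3.57% of all tested genes. They lay below for 0 of the 29, against 2.40%. For NH4Cl against control, all 3 treated libraries were above all 3 controls for 7 of the 29, against 9.58%, with ATP6V1F and NCOA7 beside those 5, and below for 1, ROGDI, against 7.92%. For NH4Cl + TGF-β against TGF-β, 7 were above, against 8.90%, with ATP6V0B and ATP6V1G1 beside those 5, and 1 was below, ATP6V0C, against 7.45%. In all 3 pairs of equal replicate number, 11 genes were higher with NH4Cl than control, against 26.4%, and 4 lower, against 25.3%; with NH4Cl + TGF-β against TGF-β 8 were higher and 5 lower, each against 25.2%. In 6 of 6 pairs, 6 of the 29 genes were higher with NH4Cl, against 15.7%: those 5 and ATP6V0B. NCOA7, ROGDI, ATP6V1G1 and ATP6V0C are named here because they stand behind these counts.

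Differences between replicates were set beside those between treatments, without a test. Replicate 3 differed from the mean of replicates 1 and 2 by a median absolute log2 value of 0.154 over the 29 genes, and by 0.159 over all tested genes, whereas the median absolute fold change with NH4Cl against control was 0.066 over the 29. Replicate 3 was above that mean in all 4 groups for 6 genes, from 0.093 for NCOA7 to 0.37 for TCIRG1 on average, with ATP6V0A4, ATP6V1D, ATP6V1F and OXR1 between. It was below that mean in all 4 groups for 10 genes, with the largest average differences for TMEM199 at -0.37, ATP6V1C2 at -0.32 and ATP6V0E2 at -0.29. Over all tested genes the same held for 31.4% above and 32.2% below. These are differences in FPKM without scaling to equal library sums. FPKM summed to 301728 to 305984 in the replicate 3 libraries and to 262958 to 278920 in the others. How many genes keep these directions at equal sums was not counted. ATP6V1A, ATP6V1E1, ATP6V1H, ATP6V0A1 and ATP6AP1, named for the separation of their NH4Cl libraries, had small average differences, from -0.047 to 0.040. That separation favours genes whose replicates lie close together, so these small differences are not a separate result. Signs differed between groups, and single differences ran from -0.144 for ATP6V1A with TGF-β to 0.160 for ATP6V1H with NH4Cl.

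TGF-β for 1 h left no pump gene past the threshold. Against control, 0 of the 29 genes passed in limma in either model, with 0 at an unadjusted p under 0.05, beside 103 of all 12341 genes without the block and 422 with it. Of all tested genes 0% were called without the block and 0.0081% with it. For NH4Cl + TGF-β against NH4Cl, 0 of the 29 passed, with 1 at an unadjusted p under 0.05 in limma without the block and 2 with it, beside 165 and 879 of all 12341. The same 0% and 0.0081% of all genes were called. For the interaction, which asks whether the NH4Cl difference changes with TGF-β, 0 of the 29 passed in limma, with 0 and 1 at an unadjusted p under 0.05 without and with the block, beside 115 and 537 of all 12341, and 0% of all genes were called. So no difference between the 2 NH4Cl comparisons was shown for any single gene, also where only 1 of them passed. NH4Cl + TGF-β against control shares libraries with both other comparisons. There 0 of the 29 were called higher in limma without the block, against 0.705% of all tested genes (0.948% in either direction) and with 5 at an unadjusted p under 0.05, beside 1618 of all 12341, and 5 with the block, against 10.7% (18.4%). The 5 fold changes were 0.24 for ATP6V1A, 0.19 for ATP6V1E1, 0.29 for ATP6V1H, 0.17 for ATP6V0A1 and 0.23 for ATP6AP1. Of these calls, those of ATP6V1A and ATP6AP1 held without any 1 library and with replicates 1 and 2 alone. ATP6V1E1 was lost without control replicate 1 or 2 or NH4Cl + TGF-β replicate 1 or 3. ATP6V1H was lost without any control library, without NH4Cl + TGF-β replicate 1 or 3, and with replicates 1 and 2 alone. ATP6V0A1 held only when TGF-β replicate 3 or NH4Cl replicate 3 was the library left out, and was lost with TPM, with median centring and with replicates 1 and 2 alone.

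Other genes of acidic compartments give a frame for these values, counted in the same fits. With NH4Cl against control, 0.267% of all tested genes were called higher without the block and 7.42% with it. Called lower were 0.113% and 6.14%. With NH4Cl + TGF-β against TGF-β the shares were 0.778% and 10.3% higher, and 0.251% and 8.48% lower. Of 7 further V-ATPase-related genes, 6 were in the table and 3 tested, TBC1D24, MEAK7 and TLDC2, and 0 passed in limma in either NH4Cl comparison under either model, with 0 at an unadjusted p under 0.05. Of 13 ion transport genes of endosomes and lysosomes, 11 were tested, with a median fold change of -0.034 with NH4Cl against control. The 2-pore channel gene TPCN2 fell in both models, with fold changes of -0.38 (limma adjusted p = 0.0402 without and 0.00365 with the block) and, for NH4Cl + TGF-β against TGF-β, -0.32. With the block, the chloride and proton exchangers CLCN6 and CLCN7 rose with NH4Cl against control, by 0.32 and 0.21. For NH4Cl + TGF-β against TGF-β with the block 1 of the 11 was called higher and 3 lower, among them TPCN2; CLCN6 had a rise of 0.22 and the potassium and proton channel gene TMEM175 a fall of 0.23.

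The Ragulator and Rag list, whose proteins dock on the pump to sense amino acids at the lysosome, had 13 tested genes with median fold changes of 0.083 and 0.13 in the 2 NH4Cl comparisons. Without the block 0 passed in limma, with 3 and 4 at an unadjusted p under 0.05, and with the block RRAGD, FLCN and FNIP1 rose in both, RRAGD by 0.30 and 0.46. Of all tested genes, 7.42% and 10.3% were called higher with the block. Among the transcription factors of the MiT family, TFEB and TFE3 were tested, and TFE3 fell by 0.18 with NH4Cl + TGF-β against TGF-β (limma adjusted p = 0.0138 with the block, 0.427 without). With NH4Cl against control neither was called in either model, at fold changes of -0.075 and -0.00075. Neither was called with NH4Cl + TGF-β against control. With TGF-β against control both were higher, by 0.10 and 0.21, and also not called. All 25 lysosomal enzyme and membrane protein genes were tested, with medians of 0.14 and 0.13. Of them 2 rose with NH4Cl against control without the block and 11 with it, against 0.267% and 7.42% of all tested genes. With NH4Cl + TGF-β against TGF-β 3 and 11 rose, against 0.778% and 10.3%. The acid glucosidase gene GAA had the largest fold changes, 0.75 and 0.77 (limma adjusted p = 0.0131 and 0.0112 without the block), followed by the sterol carrier gene NPC2 with 0.57 and 0.54. GAA libraries ran from 20.4 to 26.0 FPKM with NH4Cl and from 12.9 to 15.1 FPKM without it, with no overlap. Of 15 mitochondrial ATP synthase genes, which encode the related rotary enzyme that makes ATP, 0 passed with NH4Cl against control in limma in either model, with 0 and 1 at an unadjusted p under 0.05. With NH4Cl + TGF-β against TGF-β and the block, ATP5MG and ATP5F1D rose, by 0.26 and 0.16, against 10.3% of all tested genes called higher. Without the block 0 of the 15 passed in limma, with 2 at an unadjusted p under 0.05. No called pump gene had a fold change as large as GAA or NPC2, and the difference between the lists was not tested.

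**Figure D5:**
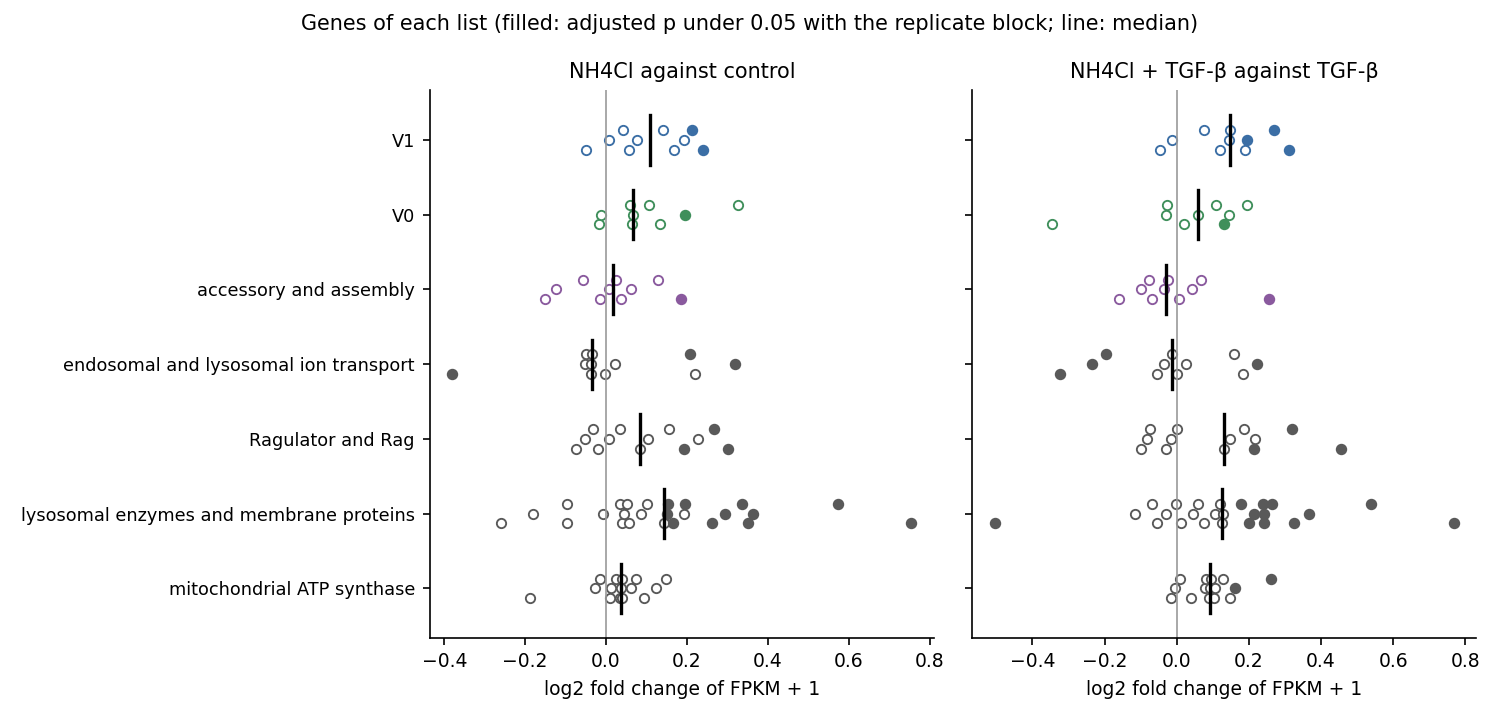
Log2 fold change of FPKM + 1 for each tested gene of 7 lists, with NH4Cl against control at the left and NH4Cl + TGF-β against TGF-β at the right, filled where the adjusted p was under 0.05 with the replicate block, and the list's median as a black line. V1, V0, and accessory and assembly genes lie between -0.35 and 0.33, and the lysosomal list reaches 0.75 and 0.77.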

How the data were processed

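RNA of 12 HCT116 libraries was sequenced, and the authors deposited FPKM for 25733 genes in each. The submitters' notes name Trimmomatic 0.36, STAR 2.5.2b and featureCounts of Subread 1.5.2 on GRCh38, whereas the methods name HTSeq for counting. Gene identifiers, exon lengths and positions came from GENCODE 29. FPKM times exon length gave whole reads within 0.1 for 100% of values, and with these the depth.

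Genes averaging 1 FPKM or more were fitted as log2(FPKM + 1) with limma 3.58.1 in R 4.3.3 (4 group means, moderated test with intensity trend, two-sided), and p-values were adjusted by Benjamini-Hochberg over 12341 genes in each of 6 comparisons. The fit was tested on simulated data, with an outcome that is not reported here and on which no statement here rests. A second model added the replicate number as a block: in 18 of 18 same-number pairs, library deviations from group means correlated over genes at 0.349 to 0.774, against at most 0.486 for other pairs. Among replicates 1 and 2, same-number pairs gave 0.349 to 0.533 and pairs of different number 0.341 to 0.486. With replicate 3 apart, centring on group means makes replicates 1 and 2 correlate, so these values do not show that those 2 are paired by number. Python 3.11.15, numpy 2.4.6, pandas 2.3.3 and matplotlib 3.10.9 did the rest.

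The genes and lists were chosen with earlier results of these data known. Values in every library are given for genes past the threshold in either NH4Cl comparison in either model, at most 4 for each of the V1, V0, and accessory and assembly classes, and for the 2 genes of each class with the largest NH4Cl fold change against control. From each other list at most 3 genes past the threshold are named, those with the largest fold changes in a comparison. ATP6V1G1, ATP6V0C, NCOA7 and ROGDI were named after their values were seen. One result of the lysosomal list is not reported here. Alternatives were a pseudocount of 0.1, no filter, a mean FPKM of at least 5, equal library sums (TPM), median centring, only the groups compared, no intensity trend, replicates 1 and 2 only, the block joined with some of these, and each library left out. Leaving out each library with the block was chosen after seeing the data.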

Additional observations from a re-analysis of the deposited data

How the results depend on the processing

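Of the fold changes of the 9 genes that the fixed rule names, which alone were followed through every alternative, a single one reversed: TMEM199 with NH4Cl against control, whose fold change ran from -0.26 without control replicate 3 to 0.018 without NH4Cl replicate 3. With NH4Cl against control, 0 genes were called under the alternatives without the block other than replicates 1 and 2 only, which gave 3 and raised the calls over all genes from 47 to 1293 of 12341. With the block it was 4, also with TPM and with a pseudocount of 0.1, and 3 with median centring and with replicates 1 and 2 only. Calls over all genes with the block were 1674, and 1477, 1654, 1669 and 1147 under these alternatives in that order. With NH4Cl + TGF-β against TGF-β, the 1 call without the block became 0 with a pseudocount of 0.1, no filter, TPM, median centring, only the groups compared or no intensity trend, 2 with a mean FPKM of at least 5, and 2 with replicates 1 and 2 only, where calls over all genes went from 127 to 1740. Under the alternatives before that, calls over all genes were 120, 51, 58, 97, 0, 102 and 100 in that order. With no filter 25733 genes were tested, and with the mean of at least 5 FPKM 7278. The count of pump genes was 5 with the block, also with median centring and with a pseudocount of 0.1, 4 with TPM and 2 with replicates 1 and 2 only. Calls over all genes there were 2322, 2370, 2291, 2041 and 1653. With NH4Cl + TGF-β against control, 0 without the block became 3 with replicates 1 and 2 only, as calls over all genes went from 117 to 1630. It was 5 with the block, also with a pseudocount of 0.1, 4 with TPM, 4 with median centring and 3 with replicates 1 and 2 only. Calls over all genes there were 2274, 2253, 2052, 2303 and 1605. Under the 6 alternatives that lost it, the ATP6AP1 call without the block had limma adjusted p-values of 0.0508 to 0.373. With each library left out in turn, the counts without the block ran from 0 to 0, 0 to 1 and 0 to 0 in these 3 comparisons, and with the block from 1 to 5, 2 to 5 and 2 to 5. With the block, NH4Cl against control gave 2 calls without control replicate 1, 2 or 3 or NH4Cl replicate 1, and 1 without NH4Cl replicate 2. Calls over all genes fell as well, from 1674 to 776, 747, 992, 884 and 705 in these fits. NH4Cl + TGF-β against TGF-β gave 3 without replicate 1 of either group and 2 without replicate 3 of either group. Without TGF-β replicate 1 or 3, calls over all genes fell from 2322 to 1339 and 1797. NH4Cl + TGF-β against control gave 2 without control replicate 1 or 2 or NH4Cl + TGF-β replicate 3, and 3 without control replicate 3 or NH4Cl + TGF-β replicate 1. Without control replicate 1, 2 or 3, calls over all genes fell from 2274 to 1309, 1169 and 1472. The median fold change of V1 genes with NH4Cl against control was 0.067 with no filter and 0.088 to 0.14 with a library left out, and with NH4Cl + TGF-β against TGF-β 0.093 to 0.17. For V0 genes with NH4Cl against control it was 0.087 with a pseudocount of 0.1, 0.085 with TPM, 0.051 with median centring and 0.10 with replicates 1 and 2 only, the same with and without the block, and 0.028 to 0.10 with a library left out. With NH4Cl + TGF-β against TGF-β it was 0.049 to 0.11. For accessory and assembly genes it was -0.019 to 0.056 with a library left out in the first comparison, and in the second -0.046 to -0.0023, and 0.0071 with a mean FPKM of at least 5. The causes of these changes were not tested. Depth limits ATP6V1B1, ATP6V0D2, ATP6V1G2 and ATP6V0C, and with 3 libraries in a group small fold changes can be missed.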
